A study of Mus musculus with 2 samples.

Results

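Glycolysis enzymes and glucose transporters were followed through 10 genes, the transporters Slc2a1 and Slc2a3 and the enzymes Hk1, Hk2, Gpi1, Pfkl, Pfkp, Aldoa, Pgk1 and Pkm. They were taken by gene symbol from a deposited table of 24532 mouse genes, and all 10 were found in it. The rule that picks them uses no measured value, although the genes were chosen with earlier results of these data known.

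Glucose enters a cell through facilitative transporters of the Slc2a family and is trapped by hexokinase, which adds a phosphate. An isomerase, phosphofructokinase and aldolase then turn the sugar into trioses, and the later steps, through phosphoglycerate kinase and pyruvate kinase, make ATP and end in pyruvate. Mouse embryonic stem cells (ESCs) use this pathway, and many of its steps can be carried by more than 1 isozyme, each from its own gene.

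RNA-seq of polyadenylated RNA was available for E14, an established mouse ESC line that is wild type for Sox2, and for E14-Sox2 TA/WT cells, with 1 library each. In E14-Sox2 TA/WT cells, 1 allele of Sox2 was edited by CRISPR/Cas9 with a single-stranded DNA donor, so that the O-GlcNAc-bearing threonine became alanine (Sox2 T258A), and the other allele is wild type. These cells were expanded from single cells, and the study does not state whether 1 clone or several were sequenced. They are called the TA/WT clone here. By the methods of the study they were selected and kept in serum, LIF and 2i (PD0325901 and CHIR99021), with 2i withdrawn for some passages before use. E14, in contrast, was grown in serum and LIF. Genotype, clone and culture history differ together and cannot be told apart, and because each genotype has 1 library, differences could not be tested and p-values are left out. Fewer cells carrying a transcript and less of it per cell cannot be told apart in these bulk samples either.

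The libraries held 60263536 and 44609228 counted reads in E14 and the TA/WT clone, respectively. The genes of interest took between 2484 and 138575 reads each per library, so that counting error was small throughout. All 8 markers of pluripotent cells reached a TPM (a level corrected for transcript length and library total) of at least 10 in both libraries, 3 of them higher and 5 lower in the clone, with a median log2 ratio of -0.28. Their ratios ran from -1.07 in Nanog, with 527 and 251 TPM, through -0.63 in Dppa5a and 0.03 in Pou5f1 to 0.24 in Utf1. Of 9 fibroblast markers, only Thy1 reached a TPM of 10. Their summed level was 49.5 TPM in E14 and 18.2 TPM in the TA/WT clone, and Lum, Dcn and Postn had 0 reads in either library, which allows up to 3 reads each. Most of that sum was Thy1 (40.1 and 11.4 TPM) and Pdgfra (6.48 and 1.57 TPM), whereas Col3a1 had 15 and 151 reads and Col1a2 43 and 109 reads. The part of any of these markers in the results was not tested. Sox2 itself had 28936 and 14270 reads, which is 373 and 274 TPM (log2 ratio -0.44), and gene-level values do not show the edited codon.

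Transcript levels of most of the 10 genes were close in the 2 libraries, but genes for alternative forms of hexokinase and phosphofructokinase differed in opposite directions. Of the uptake genes, Slc2a1 was higher, while Slc2a3 was close in both libraries (log2 ratio -0.09). The direction of each of these 6 genes was the same under all 14 processing alternatives. For these genes the filters, pseudocounts and copies could not turn it, and scalings moved all genes alike. The count of alternatives therefore says little about how firm a direction is. Hk2 and Slc2a1 were higher in the TA/WT clone by 1.59-fold and 1.54-fold, and Hk1 was lower by 2.04-fold. The other 7 genes differed by less than 1.5-fold, with Pfkp the nearest to that size at 1.47-fold lower. Levels were compared as the ratio of deposited TPM, TA/WT over E14, on a log2 scale where 1 is 2-fold. The 95% intervals come from the read counts by the exact Clopper-Pearson method and cover counting error only, since reads made by PCR are not independent molecules.

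By count, 5 genes were higher and 5 lower, with a median log2 ratio of 0.07. Over the 9094 genes that reached a TPM of 10 in a library, the median was 0.08. Past 1.5-fold lay 2 of the 10 genes on the higher side, where 14.2% of the 9094 genes lay, and 1 on the lower side, where 10.5% of them lay. Past 2-fold lay 0 on the higher side, against 4.17% of all genes, and 1 on the lower side, against 4.07%. With 10 genes these counts are near the background and are no result about the list. The counting interval of each of the 10 genes lay clear of a log2 ratio of 0. Scaling reads by the library total (RPM) in place of TPM lowered the ratio of each gene by 0.14 on the log2 scale, and it moved the median of all genes from 0.08 to -0.06 likewise. On that scale, 0 of the 10 genes were past 1.5-fold on the higher side and 2 on the lower side (Hk1 and Pfkp), where 9.02% and 14.5% of all genes lay.

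**Figure D1:**
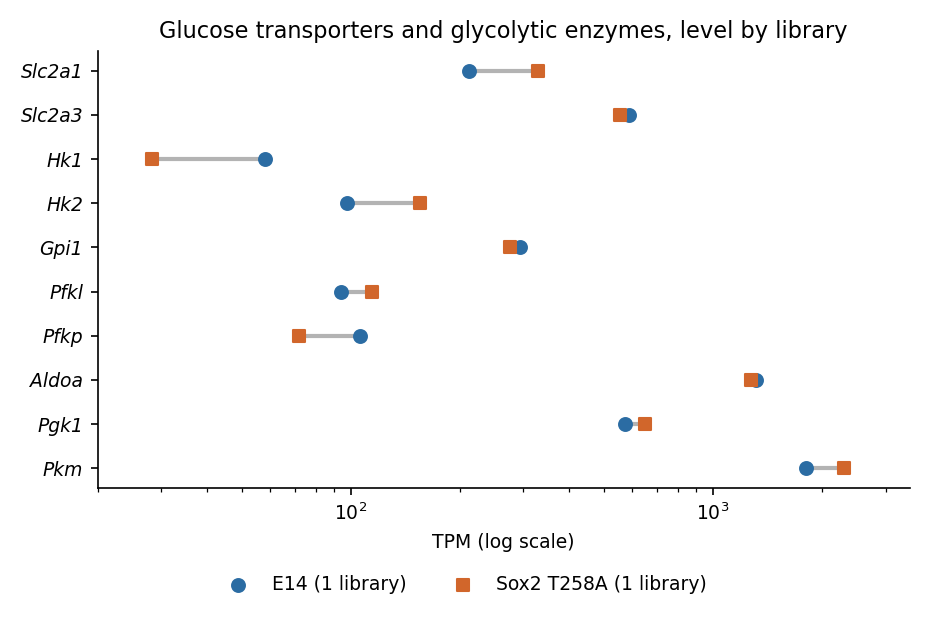
Level of each of the 10 genes in TPM on a log axis, with a circle for the E14 library and a square for the TA/WT library (labelled Sox2 T258A). Pkm is the highest gene in both libraries (1809 and 2309 TPM) and Hk1 the lowest (57.8 and 28.3 TPM), and the lines that join the symbols are long only for Slc2a1, Hk1, Hk2 and Pfkp.

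The order of levels ran from abundant Pkm and Aldoa to scarce hexokinase genes. Among all genes of the table, Pkm ranked at position 85 in E14 and 65 in the TA/WT clone, and Aldoa ranked at position 105 in both. In E14 the order ran Pkm, Aldoa, Slc2a3, Pgk1, Gpi1, Slc2a1, Pfkp, Hk2, Pfkl and Hk1. In the clone Pgk1 stood above Slc2a3, Slc2a1 above Gpi1, and Hk2 and Pfkl above Pfkp. Without replicates it is not known which of these neighbours differ beyond the spread between cultures.

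Promoter windows are shown for genes of uptake, hexokinase and phosphofructokinase, so that the genes of a pair can be compared. The windows run from 250 bases before to 50 bases after an annotated start in RefSeq on GRCm38.p6, which held 13 windows for 9 of the 10 genes, Slc2a3 having none. Each is written 5′ to 3′ on the strand of the gene, and capitals mark the letters ACGTG, searched on both strands (CACGT on the other). These letters are a form of the core bound by hypoxia-inducible factors and part of the E-box CACGTG. The other form of that core, GCGTG, was not searched. Slc2a1 lies at chr4:119108495-119108794 on the plus strand. Hk1 has 2 windows, of which chr10:62340372-62340671 on the minus strand, the one that holds the letters, is shown. The other window of Hk1, chr10:62379859-62380158, held none. Hk2 lies at chr6:82774405-82774704, Pfkl at chr10:78009758-78010057 and Pfkp at chr13:6648722-6649021, each on the minus strand.
Slc2a1: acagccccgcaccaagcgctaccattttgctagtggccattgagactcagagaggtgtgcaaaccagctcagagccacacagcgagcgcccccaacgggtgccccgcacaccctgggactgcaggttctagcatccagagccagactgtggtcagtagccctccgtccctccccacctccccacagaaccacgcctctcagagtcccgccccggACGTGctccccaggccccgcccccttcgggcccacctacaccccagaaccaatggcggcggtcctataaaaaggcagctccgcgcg
Hk1: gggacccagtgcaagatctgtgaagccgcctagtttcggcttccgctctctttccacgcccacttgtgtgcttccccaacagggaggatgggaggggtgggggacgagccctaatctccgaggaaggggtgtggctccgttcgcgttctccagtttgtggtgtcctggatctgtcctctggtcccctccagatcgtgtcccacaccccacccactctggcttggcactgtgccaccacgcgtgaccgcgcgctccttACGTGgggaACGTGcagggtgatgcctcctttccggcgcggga
Hk2: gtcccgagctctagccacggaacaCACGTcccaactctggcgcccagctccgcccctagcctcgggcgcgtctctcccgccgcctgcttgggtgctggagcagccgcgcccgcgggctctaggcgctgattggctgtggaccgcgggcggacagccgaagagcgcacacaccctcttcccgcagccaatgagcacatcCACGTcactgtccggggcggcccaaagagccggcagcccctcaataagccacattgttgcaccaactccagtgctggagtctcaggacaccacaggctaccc
Pfkl: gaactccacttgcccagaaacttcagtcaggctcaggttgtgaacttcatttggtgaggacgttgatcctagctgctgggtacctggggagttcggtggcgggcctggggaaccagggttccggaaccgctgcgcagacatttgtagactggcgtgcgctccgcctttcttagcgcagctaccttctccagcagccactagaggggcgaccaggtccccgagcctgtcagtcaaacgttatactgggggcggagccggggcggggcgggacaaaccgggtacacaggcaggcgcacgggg
Pfkp: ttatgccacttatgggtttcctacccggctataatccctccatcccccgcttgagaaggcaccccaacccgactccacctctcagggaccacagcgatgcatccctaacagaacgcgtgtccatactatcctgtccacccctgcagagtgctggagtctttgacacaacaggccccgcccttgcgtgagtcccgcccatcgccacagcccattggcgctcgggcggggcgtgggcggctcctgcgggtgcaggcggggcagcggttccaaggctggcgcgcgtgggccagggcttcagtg

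ACGTG occurred in at least 1 window of 6 of the 9 genes, namely Slc2a1, Hk1, Hk2, Aldoa, Pgk1 and Pkm. Across the table of promoters, 21.8% of 27025 genes held it, and 31.6% of the 7297 with a TPM of at least 10. The letters began 36 bases before the start in Slc2a1, 226 and 52 bases before it in Hk2, and 7 and 16 bases after it in Hk1. They were thus found in windows of genes that were higher (Slc2a1, Hk2). They were also in 1 of the 2 windows of the gene that was lowest in ratio (Hk1), and Gpi1, Pfkl and Pfkp held no ACGTG. The form GCGTG, which was not counted, can be read in the windows of Pfkl and Pfkp. The full E-box CACGTG was in 0 of the 9 genes and in 8.09% of all genes. A match describes letters and not a site in use.

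Glucose uptake was carried by 2 transporters whose levels were closer to each other in the TA/WT clone. Slc2a1 (GLUT1, Entrez 20525, chr4:119108745-119137330) is the widely expressed basal transporter. It had 17242 reads and 213 TPM in E14 and 17817 reads and 328 TPM in the TA/WT clone, a log2 ratio of 0.63 (95% interval 0.59 to 0.66). Slc2a3 (GLUT3, Entrez 20527, chr6:122727809-122802363) is a transporter of high affinity, best known in neurons and early embryos. It had 73251 reads and 587 TPM in E14 against 46222 reads and 553 TPM, a log2 ratio of -0.09 (-0.10 to -0.07). Slc2a3 remained the more abundant of the 2 in both libraries. Slc2a1 made up 26.6% of the summed TPM of the pair in E14 and 37.2% in the TA/WT clone. The ratio of Slc2a1 to Slc2a3 was 1.64-fold higher, which is 0.71 on the log2 scale (0.68 to 0.75). Such a ratio within a library does not depend on how the libraries were scaled, and it shows that the 2 genes differed unequally, not which of them changed. Summed over the pair, uptake transcripts stood at 800.3 TPM and 881 TPM, a log2 ratio of 0.14. It was -0.004 with FPKM, which is scaled per kilobase and per library. With summed RPM, which is not corrected for transcript length, it was -0.06.

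The remaining hexose transporters were scarce. Of 12 genes of the Slc2a and Slc5a families besides this pair, only Slc2a8, an intracellular transporter, reached a TPM of 10, with 21.2 TPM in E14 and 13.5 TPM in the TA/WT clone (log2 ratio -0.65). Slc2a2, the transporter of liver and pancreatic islets, had 0 reads in both.

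Hexokinase showed the widest difference between forms. Hk1 (Entrez 15275, chr10:62268855-62379920) encodes the housekeeping hexokinase of most tissues. It had 7571 reads and 57.8 TPM in E14 and 2484 reads and 28.3 TPM in the TA/WT clone, a log2 ratio of -1.03 (-1.10 to -0.96). The interval reached on both sides of 2-fold. Hk2 (Entrez 15277, chr6:82725025-82774454) encodes the inducible hexokinase of muscle, fat and many tumours. It had 16984 reads and 97.8 TPM in E14 and 18101 reads and 156 TPM in the TA/WT clone, a log2 ratio of 0.67 (0.64 to 0.70). Hk2 thus had more reads in the smaller of the libraries. Hk2 was the larger share of the pair in both libraries, at 62.9% in E14 and 84.6% in the TA/WT clone. The ratio of Hk2 to Hk1 was 3.25-fold higher (log2 1.70, 1.63 to 1.77). Hk1os, an antisense transcript of the Hk1 locus, had 24 and 0 reads, too few to alter the value of Hk1.

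The total over the hexokinase genes differed less than its parts. Summed over 4 genes, hexokinase stood at 158 TPM in E14 and 185 TPM in the TA/WT clone (log2 ratio 0.23). Hkdc1, a hexokinase-like gene, was scarce, with 2.60 and 1.20 TPM. Adpgk, which phosphorylates glucose with ADP, had 63.4 and 48.0 TPM (log2 ratio -0.40).

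**Figure D2:**
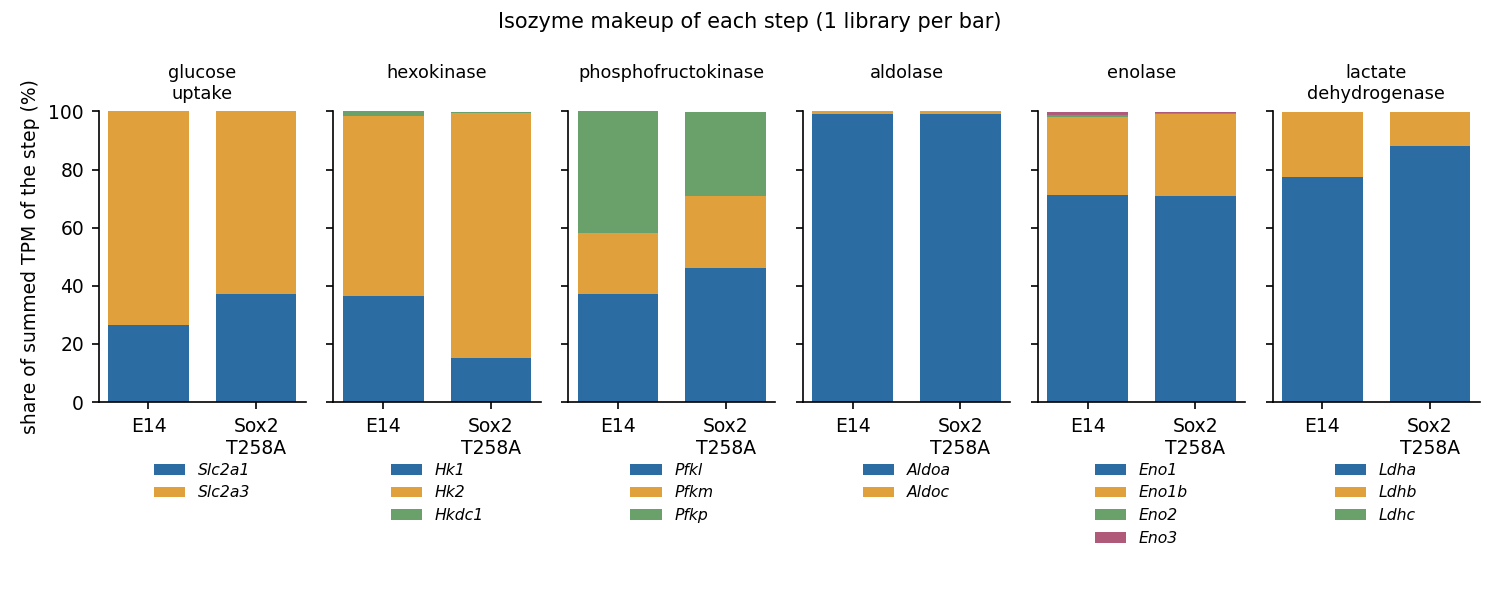
Share of the summed TPM of a step taken by each isozyme (vertical axis, percent), with 1 bar per library for glucose uptake, hexokinase, phosphofructokinase, aldolase, enolase and lactate dehydrogenase. Hk1 shrinks from 36.5% to 15.3% of hexokinase, Pfkp from 42.0% to 29.0% of phosphofructokinase and Ldhb from 22.5% to 11.9% of lactate dehydrogenase, while Aldoa holds nearly all of aldolase in both.

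Gpi1 (Entrez 14751, chr7:34201327-34230336) encodes the isomerase that turns the product of hexokinase into fructose phosphate, and it has no isozyme. It had 26665 reads and 293 TPM in E14 and 16727 reads and 275 TPM in the TA/WT clone. The log2 ratio was -0.10 (-0.12 to -0.07), which turned to 0.03 when a trend on the GC content and length of transcripts was removed. Its direction is therefore not settled by these data. A transcript of Gm1840 matches Gpi1 at 98.7% identity over 1046 bases. Since no reads are listed for Gm1840, the level of Gpi1 may be uncertain to that extent.

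Phosphofructokinase, the committed step of glycolysis, differed in its forms and little in its sum. Pfkl, the liver form (Entrez 18641, chr10:77986947-78009807), had 11037 reads and 94.3 TPM in E14 and 8999 reads and 115 TPM in the TA/WT clone, a log2 ratio of 0.28 (0.24 to 0.32). Pfkp, the platelet form (Entrez 56421, chr13:6579874-6649060), had 13481 reads and 106 TPM in E14 and 6129 reads and 72.0 TPM in the TA/WT clone, a log2 ratio of -0.56 (-0.60 to -0.52). Pfkp was thus the more abundant of the 2 in E14 and the less abundant in the TA/WT clone. The share of Pfkl in the pair went from 47.0% to 61.4%, and the ratio of Pfkl to Pfkp was 1.79-fold higher (log2 0.84, 0.78 to 0.90). Pfkm, the muscle form, was higher like Pfkl, with 52.6 and 61.8 TPM (log2 ratio 0.23, 0.17 to 0.30). The ratio of Pfkl to Pfkm differed by 0.05 on the log2 scale with an interval from -0.02 to 0.12, a difference not detectable at this depth. Summed over the 3 forms, phosphofructokinase stood at 253 and 248 TPM (log2 ratio -0.03). Reads of Pfkp are less certain than those of the other forms, because its transcripts share 748 identical bases with those of the overlapping gene Pitrm1 and how such reads were assigned is not given in the sources used here. Pitrm1 had 12026 and 8453 reads.

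**Figure D3:**
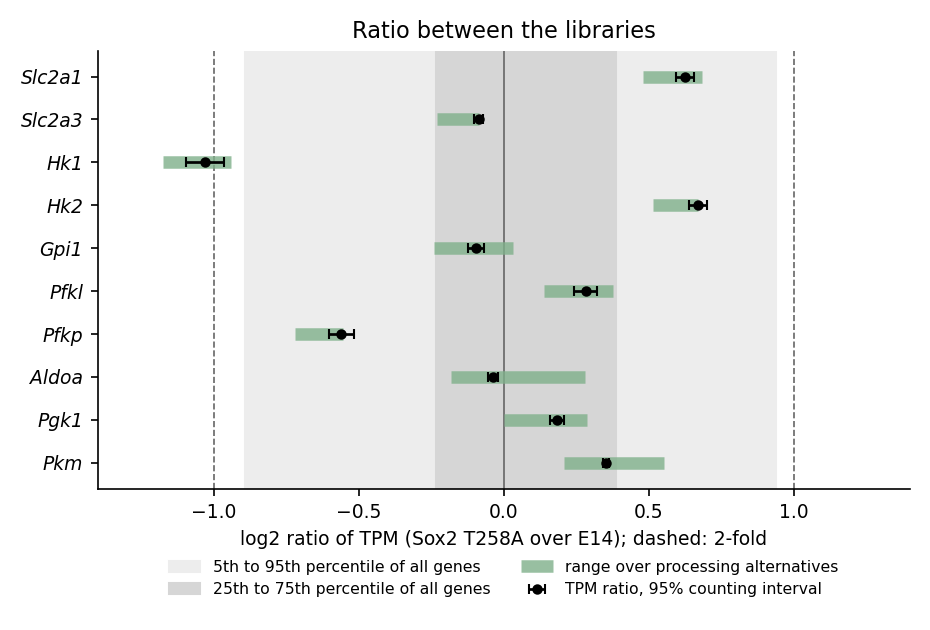
Log2 ratio of TPM, TA/WT over E14, for the 10 genes (points) with 95% counting intervals, green bars for the range over 14 processing alternatives, and grey bands for the 25th to 75th and the 5th to 95th percentile of the 9094 genes. Only Hk1 (-1.03) lies outside the wide band, and Slc2a1 (0.63), Hk2 (0.67) and Pfkp (-0.56) lie outside the narrow band.

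Aldolase, phosphoglycerate kinase and pyruvate kinase each rested almost wholly on 1 gene. Aldoa (Entrez 11674, chr7:126795234-126800994) encodes the aldolase of muscle and most dividing cells. It had 63961 reads and 1313 TPM in E14 and 41760 reads and 1279 TPM in the TA/WT clone, a log2 ratio of -0.04 (-0.06 to -0.02) that was 0.28 with the GC and length trend removed. Aldoc, the brain form, had 13.6 and 11.2 TPM. The retrogene Aldoart2 had 10 and 5 reads.

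Pgk1 (Entrez 18655, chrX:106187100-106203699) encodes the first ATP-making enzyme of the pathway. It had 32932 reads and 573 TPM in E14 and 25059 reads and 651 TPM in the TA/WT clone, a log2 ratio of 0.18 (0.16 to 0.21). That value was also the median of the 291 genes of chromosome X with a TPM of at least 10, Pgk1 being the median gene itself. Pgk2, the testis form, had 0 reads. Transcripts of Gm5537 and Pgk1-rs7 match Pgk1 without a mismatch over 1252 and 1255 bases, and since neither is a gene of the table the level of Pgk1 may be uncertain to that extent.

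Pkm (Entrez 18746, chr9:59656576-59679372) encodes the muscle-type pyruvate kinase, the last step to pyruvate. It had 138575 reads and 1809 TPM in E14 and 118503 reads and 2309 TPM in the TA/WT clone, a log2 ratio of 0.35 (0.34 to 0.36). The gene-level values do not separate its spliced forms PKM1 and PKM2. In TPM it had the largest difference among the 10 genes, 499.8 TPM, beside a sum over the 10 genes of 5144 TPM in E14 and 5765 TPM in the TA/WT clone. Pklr, the form of liver and red cells, had 1.59 and 1.25 TPM. A transcript of Gm6560 matches Pkm at 98.4% identity over 1593 bases. Since no reads are listed for Gm6560, the level of Pkm may be uncertain to that extent.

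Along the pathway, the summed levels of all steps lay within 1.5-fold. Uptake and hexokinase had log2 ratios of 0.14 and 0.23, isomerase, phosphofructokinase and aldolase -0.10, -0.03 and -0.04, and phosphoglycerate kinase 0.18. Triosephosphate isomerase (Tpi1) stood at 242 and 312 TPM (0.36), and phosphoglycerate mutase, nearly all from Pgam1, at 603 and 858 TPM (0.51). Enolase stood at 2881 and 3781 TPM (0.39) with Eno1b, and at 2111 and 2714 TPM (0.36) without it. Eno1b is almost identical to Eno1, and its deposited TPM of 0.04 and 0.09 lay far under what its 42724 and 39674 reads and its FPKM give, so that its level was taken from FPKM. Pyruvate kinase had a log2 ratio of 0.35 and lactate dehydrogenase 0.43. Gapdh, which follows Tpi1 in the pathway, had 2613 and 2522 TPM (log2 ratio -0.05). RPM of a step sums reads without correction for length, so that steps with several isozymes differ in weighting as well as in scaling. With FPKM, which corrects for length, the log2 ratio was -0.004 for uptake and 0.08 for hexokinase. Counted as RPM, the log2 ratios in pathway order were -0.06 for uptake, 0.17 for hexokinase, -0.24 for isomerase, -0.20 for phosphofructokinase and -0.18 for aldolase. They went on with 0.22 for Tpi1, -0.19 for Gapdh, 0.04 for phosphoglycerate kinase, 0.37 for mutase, 0.25 for enolase with Eno1b, 0.21 for pyruvate kinase and 0.32 for lactate dehydrogenase.

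**Figure D4:**
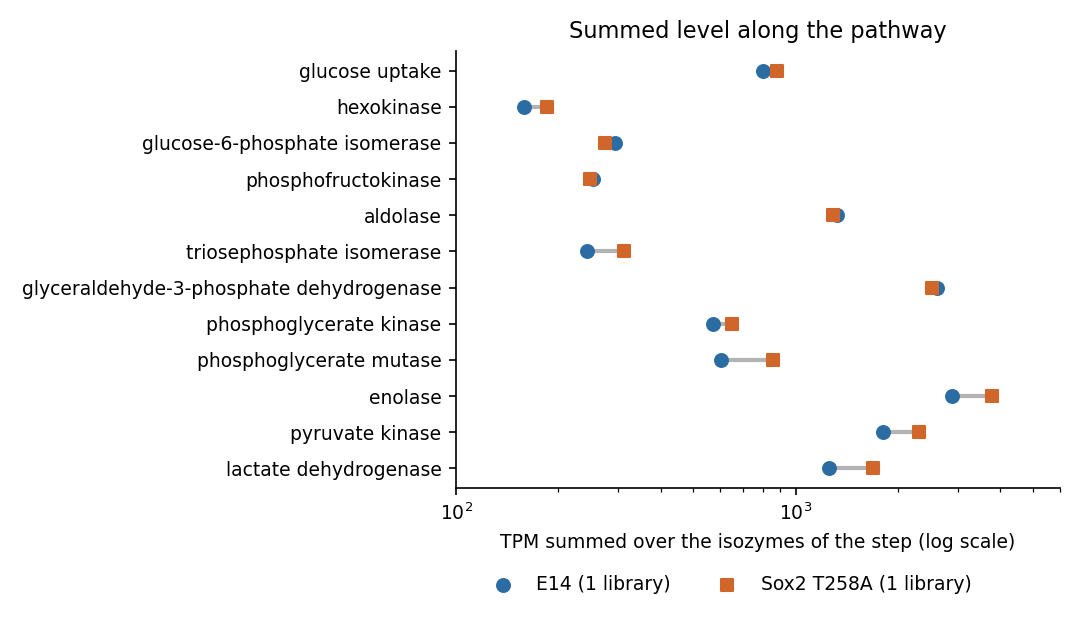
TPM summed over the isozymes of each step from uptake to lactate dehydrogenase (log axis), with a circle for E14 and a square for TA/WT (labelled Sox2 T258A). The symbols nearly coincide for phosphofructokinase (253 and 248 TPM) and aldolase (1326 and 1290 TPM) and are farthest apart for phosphoglycerate mutase (603 and 858 TPM).

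The other isozymes and steps of glycolysis were 17 genes, of which 10 reached a TPM of 10. Of these, 5 were higher and 5 lower, with a median log2 ratio of 0.09. This count uses the deposited TPM, by which Eno1b did not reach 10. With the level of Eno1b taken from FPKM (log2 ratio 0.47), an alternative added after seeing the data, 11 genes reached 10, with 6 higher, 5 lower and a median of 0.23. Only Eno2, the neuronal enolase, was past 1.5-fold, at 20.4 and 11.3 TPM (-0.85). Eno3, the muscle enolase, had 35.7 and 24.8 TPM (-0.53). The forms of lactate dehydrogenase also differed in opposite directions. Ldha, which favours the making of lactate, had 969 and 1489 TPM (0.62), and Ldhb, which favours its use, had 282 and 202 TPM (-0.48). The share of Ldha in this pair went from 77.5% to 88.1%, and the ratio of Ldha to Ldhb was 2.15-fold higher (log2 1.10, 1.05 to 1.15), a pair that was chosen after its values had been seen. Slc16a3 (MCT4), the lactate exporter of glycolytic cells, had 25.1 and 51.8 TPM (1.04), and Slc16a1 (MCT1) had 62.3 and 81.2 TPM (0.38). Bsg, the chaperone of both exporters, had 462 and 367 TPM (-0.33).

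Where pyruvate enters the mitochondrion, the genes of the gate differed in opposite directions. Of 14 genes, 11 reached a TPM of 10, with a median log2 ratio of -0.13. Past 2-fold lay 1 of the 11 on the higher side and 1 on the lower side, where 4.17% and 4.07% of all genes lay. Mpc1 and Mpc2, which together form the pyruvate carrier, had 67.3 and 29.2 TPM (-1.20) and 32.9 and 20.6 TPM (-0.68). Pdk1, a kinase that switches off pyruvate dehydrogenase, had 68.5 and 141 TPM (1.04), and Pdp2, a phosphatase that switches it on, had 1543 and 1840 reads (log2 TPM ratio 0.83). The other kinases did not follow Pdk1, with log2 ratios of -0.49 in Pdk2, 0.01 in Pdk3 and -0.21 in Pdk4. The other phosphatase, Pdp1, had 0.52, and like Pdk4 it did not reach a TPM of 10. The subunits Pdha1, Pdhb, Dlat, Dld and Pdhx had log2 ratios of 0.10, -0.48, -0.17, 0.14 and -0.13. All 20 genes of the tricarboxylic acid cycle lay within 1.5-fold, from -0.41 in Sdhb to 0.41 in Aco1, with a median of -0.10. Pfkfb3, which makes the activator of phosphofructokinase, had 5.14 and 10.1 TPM (0.97).

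In the reverse pathway, Pck2 and Fbp2 were lower past 2-fold. Of 8 gluconeogenesis genes, 4 reached a TPM of 10, and their median log2 ratio was -0.97. All 4 were below 0, as were 42.7% of the 9094 genes, and 2 were past 2-fold lower, where 4.07% of them lay. Pck2, the mitochondrial enzyme that makes phosphoenolpyruvate, had 86.3 and 26.6 TPM (-1.70). Fbp2, the muscle form of the phosphatase that opposes phosphofructokinase, had 19.1 and 4.55 TPM (-2.07). It reached a TPM of 10 in E14 only, so that its place in the count rests on the library where it is high. Pcx (-0.11) and G6pc3 (-0.24), which act at its start and its end, lay at percentiles 34.2 and 24.6 of the 9094 genes. The pentose phosphate branch had 8 of 10 genes at a TPM of 10 or more, 5 higher and 3 lower, with a median of 0.05, from H6pd (-0.62) to Pgls (0.35).

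Sugar genes at low levels, read together after their values had been seen, leaned to the lower side. Besides the 10 genes, 18 genes of the transport, glycolysis, fructose bisphosphate, lactate, pyruvate, gluconeogenesis and pentose phosphate lists had a highest TPM from 0.5 to under 10. Of these, 8 were past 2-fold lower, where 24.4% of the 5680 genes at such levels lay, and 0 were past 2-fold higher, where 12.3% lay. Their median log2 ratio was -0.94, against -0.17 over the 5680 genes. They include forms proper to other tissues, such as the testis forms Pdha2, with 166 and 13 reads, and Ldhc, with 47 and 6 reads. Slc2a7, an intestinal transporter, had 104 and 3 reads, a log2 ratio of -4.99 with an interval from -7.29 to -3.40. None of the 10 transporters and enzymes is among them, and the same lists at a TPM of 10 or more, 42 genes, had a median of -0.07.

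**Figure D5:**
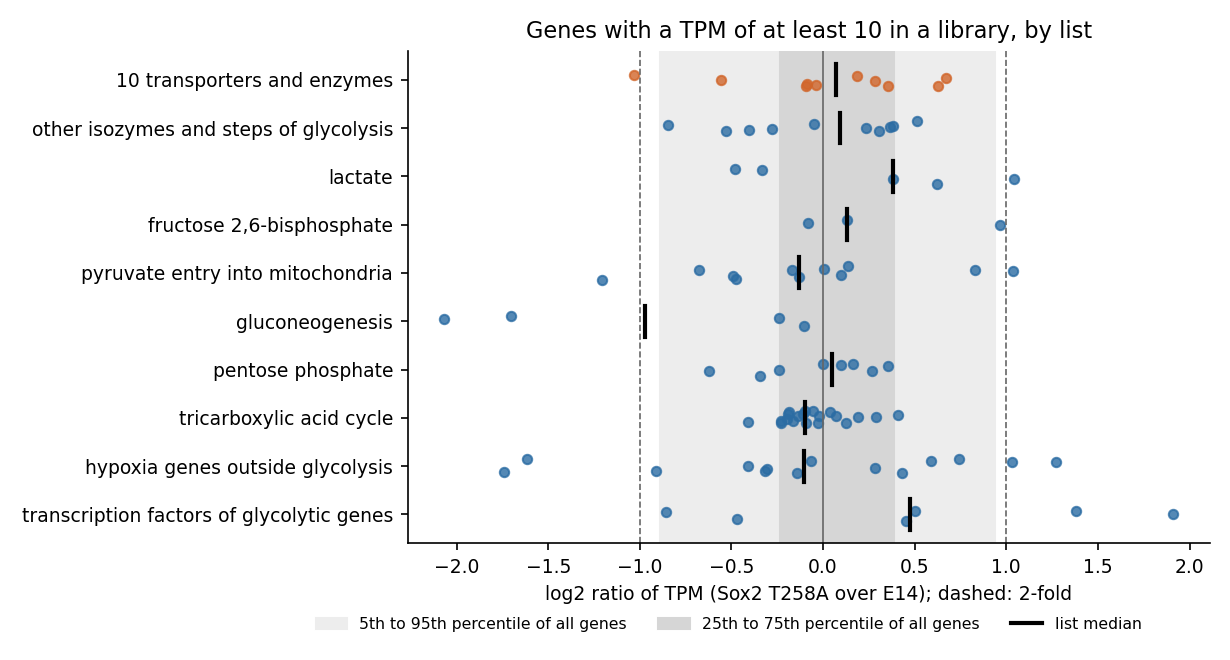
Log2 ratio of TPM, TA/WT over E14, of each gene that reached a TPM of 10 in a library (points, spread vertically for legibility), for the 10 genes and the other lists, with black bars for list medians and grey bands for the percentiles of all 9094 genes. The median of the 10 genes is 0.07, tricarboxylic acid cycle genes lie between -0.41 and 0.41, and both genes past 2-fold in gluconeogenesis (Pck2 and Fbp2) are on the lower side.

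Transcription factors known to act on glycolytic genes, and other genes of the response to hypoxia, did not share 1 direction. Myc had 27.1 and 102 TPM (log2 ratio 1.91) and Mycn 45.5 and 118 TPM (1.38). Hif1a, the oxygen-regulated subunit of the hypoxia-inducible factor, had 59.4 and 84.0 TPM (0.50), and Arnt, its partner, had 80.8 and 58.3 TPM (-0.47). Epas1, a relative of Hif1a, had 3.58 and 9.17 TPM (1.36). The glucose-responsive factor Mlxipl had 10.3 and 5.70 TPM (-0.86), and Mlxip had 3174 and 2904 reads (log2 TPM ratio 0.45). Among 18 hypoxia genes outside glycolysis, 14 reached a TPM of 10, with 6 higher, 8 lower and a median of -0.10. Egln1 and Egln3, which mark Hif proteins for decay, had log2 ratios of 1.03 and 1.27. The study picked Egln3 from these libraries, so that its direction is not independent. In contrast, Vegfa, an angiogenic factor, and Ddit4, a brake on growth signalling, had -1.62 and -1.74. Whether any of these factors bears on the levels of the 10 genes was not tested.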

How the data were processed

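Polyadenylated RNA of 1 E14 and 1 E14-Sox2 TA/WT culture was sequenced on an Illumina instrument. Per the submitters' processing notes, bcl2fastq 2.20.0, Trimmomatic, HISAT2 2.1.0 and StringTie 2.1.3b were used, without a role for each, and the table is for mm10. The authors deposited 1 gene table with whole-number read counts that are not normalized, FPKM values scaled per kilobase and per library, and TPM values scaled to the library. The handling of strand and of shared reads is not given in the sources used here. At 93 genes TPM departed by over 1% from its constant multiple of FPKM (1.94 and 2.15), and for these the step sums used FPKM times that multiple.

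Ratios of TPM were taken without a pseudocount at a TPM of at least 10 in a library, and counted past 1.5-fold and 2-fold, the study's threshold. Counting intervals of single genes (95%, exact Clopper-Pearson, scipy 1.17.1) were tested on simulated data. The simulated counts held only the counting error that the method assumes, so that this checks the calculation and not the coverage in real libraries. Intervals for ratios of pairs used a normal approximation on the log scale, which was not tested in this way. Scaling alternatives used edgeR 4.0.16 (TMM) and DESeq2 1.42.0 (size factors) for factors only. Copies were sought with blastn 2.17.0 at 95% identity over 200.0 bases in GENCODE transcripts. Named were all 10 genes, isozymes at a TPM of at least 1, copies with at least 10 reads, the listed transcription factors, and genes past 2-fold or at the ends of the other lists, and further genes were named after their values had been seen. The 10 genes and all lists were chosen with earlier results of these data known. A few genes were left out of the lists and sums and are not reported here.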

Additional observations from a re-analysis of the deposited data

How the results depend on the processing

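The direction of 7 of the 10 genes was the same under all 14 alternatives (pseudocounts, filters, scalings, centrings, copies, and a trend on GC content and length). Filters do not alter a ratio and pseudocounts cannot turn its direction, so that agreement under them was fixed beforehand. The exceptions were Gpi1 (0.03 with the trend removed), Aldoa (0.28 with the trend removed and 0.00 centred on its chromosome) and Pgk1 (0.00 centred on its chromosome). Genes past 1.5-fold on the higher side numbered 0 with RPM, 0 with FPKM and 0 when centred on all genes, and 1 with TMM, 1 with the trend removed and 1 when centred on chromosomes, against 2 in the TPM ratio. On the lower side they numbered 2 under each of these 6 settings, against 1, Pfkp being the gene added. Past 2-fold lower lay 0 with the trend removed (Hk1 at -0.94) and 0 when the whole counting interval had to lie past it. The median log2 ratio of the members, 0.073, became -0.071 with RPM, -0.070 with FPKM, 0.028 with TMM, 0.048 with size factors, -0.012 centred on all genes, 0.0019 centred on chromosomes and 0.28 with the trend removed. With that trend removed, an alternative chosen for the pairs after seeing the data, the log2 differences of Slc2a1 against Slc2a3, Hk2 against Hk1 and Pfkl against Pfkp were 0.83, 1.46 and 1.01. Shifts of single genes under other scalings follow from the factor applied to a whole library, and the cause of the shift with the trend was not tested. No paired analysis was possible because each genotype had 1 library, and no replicate could be left out. Depth did not limit the 10 genes, but the spread between cultures is unknown.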
